A study of Rattus norvegicus with 129 samples.

Results

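The proteasome genes of rat liver were followed through 19 treated groups from 5 array studies of chemicals that act on liver nuclear receptors and stress pathways. Members were all probe sets whose platform annotation gives a single symbol that begins with Psma, Psmb, Psmc, Psmd, Psme, Psmf or Psmg and goes on with a digit. This rule found 46 genes among the 14372 with such a symbol on the 3 array types. Of these, 44 are proteasome subunits, activators, assembly factors or inhibitors, and Psmc3ip and Psme3ip1 share only the letters of the symbol. An older array with 8799 probe sets held 49 member probe sets for 27 genes, a larger one with 31099 held 60 for 46 genes, and one with 15923 held 46 for 43 genes. Probe sets of Psmb6 and Psme3 carried several symbols on every array and were not read.

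The largest study gave male and female Sprague-Dawley rats 100 mg/kg of phenobarbital, of pregnenolone carbonitrile (PCN) or of the aqueous methylcellulose and Tween 80 vehicle by gavage. Each group held 5 rats, killed 6 h or 24 h after a single gavage or 24 h after a course of 5 daily gavages. Phenobarbital is the classical activator of the receptor CAR, and PCN does the same for rodent PXR. In a diet study on that array, 4 female Sprague Dawley rats aged 4 weeks ate a diet with 600 mg/kg of 3H-1,2-dithiole-3-thione (D3T), an inducer of the transcription factor NRF2, and 4 ate control mash. On it too, 2 females aged 60 days received perfluorooctane sulfonate (PFOS) at 5 mg/kg daily for 3 weeks and 2 received Tween-20 vehicle. In the study on the larger array, male Sprague-Dawley rats aged 10 weeks received perfluorooctanoate (PFOA) at 20 mg/kg/day, PFOS at 10 mg/kg/day or Alkamuls vehicle, with 3 per group. In the last study, male Wistar Hanover rats were dosed for 1, 3 or 7 days with carboxymethyl cellulose or with 60 mg/kg/day of Wy-14643, an agonist of PPARα, with 3 per group. The label of 1 Wy-14643 rat of day 3 states no dose. The labels used here do not give how long PFOA and male PFOS were dosed or how long D3T was fed.

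The proteasome is the barrel-shaped protease that degrades ubiquitin-tagged proteins in the cytosol and nucleus. Its 20S core stacks rings of alpha subunits, which gate the entrance, around rings of beta subunits, of which Psmb5, Psmb6 and Psmb7 carry the catalytic sites. A 19S cap with a ring of ATPases (the Psmc genes), further base subunits and a lid (Psmd genes) recognises and unfolds the substrate. Interferon-responsive cells exchange the catalytic subunits for Psmb8, Psmb9 and Psmb10, which make the immunoproteasome, and Psme1 and Psme2 form an activator linked to it. Genes of the constitutive particle are known to be raised by NRF2 and by its relative Nfe2l1.

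Promoter sequence of 42 of the 46 members was found in RefSeq (assembly GRCr8, 250 bases before to 50 after the annotated start, 300 in all). The antioxidant response core TGACNNNGC, searched on both strands, was present in 7 of the 42 (16.7%) and in 12.2% of all 27457 promoters of that length. None of the 6 ATPase promoters held it. The interferon response core, GAAA and GAAA with 2 bases of any kind between them, also on both strands, was present in 7 of the 42 (16.7%), in 2 of the 3 immunoproteasome promoters and in 3.77% of all promoters. CCAAT was present in 22 of the 42 (52.4%) against 37.7% of all, and TTCNNNGAA in 4 (9.52%) against 8.68%. The motifs can overlap each other, and a match is a description of letters only. The promoters below belong to a constitutive catalytic subunit, a further constitutive beta subunit and the immunoproteasome subunits that fell with Wy-14643. They were chosen because they hold a response core, and the cores do not separate the classes. The TGACNNNGC core was found in 2 of 6 constitutive beta promoters, the interferon core in the constitutive Psmb3, Psma4 and Psmd7 among others, and not in the immunoproteasome subunit Psmb9. Capitals mark the response core, TGACNNNGC in Psmb5 and Psmb2 and the interferon response core or its reverse complement in Psmb8 and Psmb10.
Psmb5: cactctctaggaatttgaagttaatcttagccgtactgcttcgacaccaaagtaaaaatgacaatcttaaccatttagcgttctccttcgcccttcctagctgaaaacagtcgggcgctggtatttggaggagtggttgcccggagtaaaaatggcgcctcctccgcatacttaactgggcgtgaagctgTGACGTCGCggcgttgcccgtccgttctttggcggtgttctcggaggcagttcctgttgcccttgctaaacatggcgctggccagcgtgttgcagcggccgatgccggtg
Psmb2: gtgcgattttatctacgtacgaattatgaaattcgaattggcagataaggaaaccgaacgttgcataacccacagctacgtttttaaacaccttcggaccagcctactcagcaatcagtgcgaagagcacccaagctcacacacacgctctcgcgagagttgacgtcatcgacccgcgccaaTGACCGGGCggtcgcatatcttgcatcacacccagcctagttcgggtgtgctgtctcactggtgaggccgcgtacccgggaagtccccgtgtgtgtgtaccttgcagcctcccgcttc
Psmb8: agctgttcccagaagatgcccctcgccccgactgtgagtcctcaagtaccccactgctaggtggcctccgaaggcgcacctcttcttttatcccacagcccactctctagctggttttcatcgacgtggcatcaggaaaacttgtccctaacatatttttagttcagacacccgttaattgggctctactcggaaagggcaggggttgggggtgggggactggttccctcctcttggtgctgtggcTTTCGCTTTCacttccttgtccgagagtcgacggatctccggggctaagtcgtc
Psmb10: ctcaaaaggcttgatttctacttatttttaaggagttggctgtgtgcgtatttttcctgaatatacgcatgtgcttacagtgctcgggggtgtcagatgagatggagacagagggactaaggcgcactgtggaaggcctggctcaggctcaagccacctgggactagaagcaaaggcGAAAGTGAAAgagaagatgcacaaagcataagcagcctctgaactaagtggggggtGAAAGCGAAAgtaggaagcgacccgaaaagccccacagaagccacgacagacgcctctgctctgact
The Psmb5 window lies at chr15:32047330-32047629 on the minus strand with its match at base -60 from the start, and that of Psmb2 at chr5:144254808-144255107 on the plus strand with the match at -68. The Psmb8 window lies at chr20:4656982-4657281 on the minus strand with the match at -4, read on the opposite strand of the promoter. The Psmb10 window lies at chr19:50743243-50743542 on the minus strand, with matches at -73 and -17.

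Values are deposited signal intensities, quantile-normalised within a study where array brightness differed. Negative ones were then set to 0, and values were written as log2(intensity + 16), so a value of 4 is the floor. Mean intensity per array ran from 159 to 454 in the phenobarbital and PCN study, where 21.1% to 25.5% of probe sets were at or below 0. A gene is described by its brightest member probe set over the arrays of a study, called here its leading probe set. A change is the treated minus the control mean of these log2 values, and it passed where limma's p, adjusted by Benjamini-Hochberg over all probe sets of the array, was under 0.05. The number of arrays per group limits the precision. The array of vehicle male rat 1003 correlated with its own group at 0.617, against at least 0.949 for the others of the study, and was left out, which left 4 vehicle males at 6 h. Comparisons of phenobarbital and of PCN at a given time and sex share their vehicle rats, as do those of PFOA and male PFOS. Each array is a separate rat.

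Over all treatments, several subunits of the core, the ATPase ring and the lid were higher in many comparisons, and those of the immunoproteasome in few or none. Psmc2, an ATPase, was higher in 10 of 19 comparisons and lower in none. Psma4 of the alpha ring, Psmb1 of the beta ring, the ATPase Psmc4 and the lid subunit Psmd13 were each higher in 8. Psmb8 was higher in none of the 19 and lower in 3, and its change lay above 0 in 2. Psmb9 was higher in 1 and lower in 1. Psmb10, measured in 5 comparisons, was lower in 1 and below 0 in every one. The activator subunit Psme2 and the assembly chaperone Psmd10 passed in none of 19 comparisons.

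**Figure D1:**
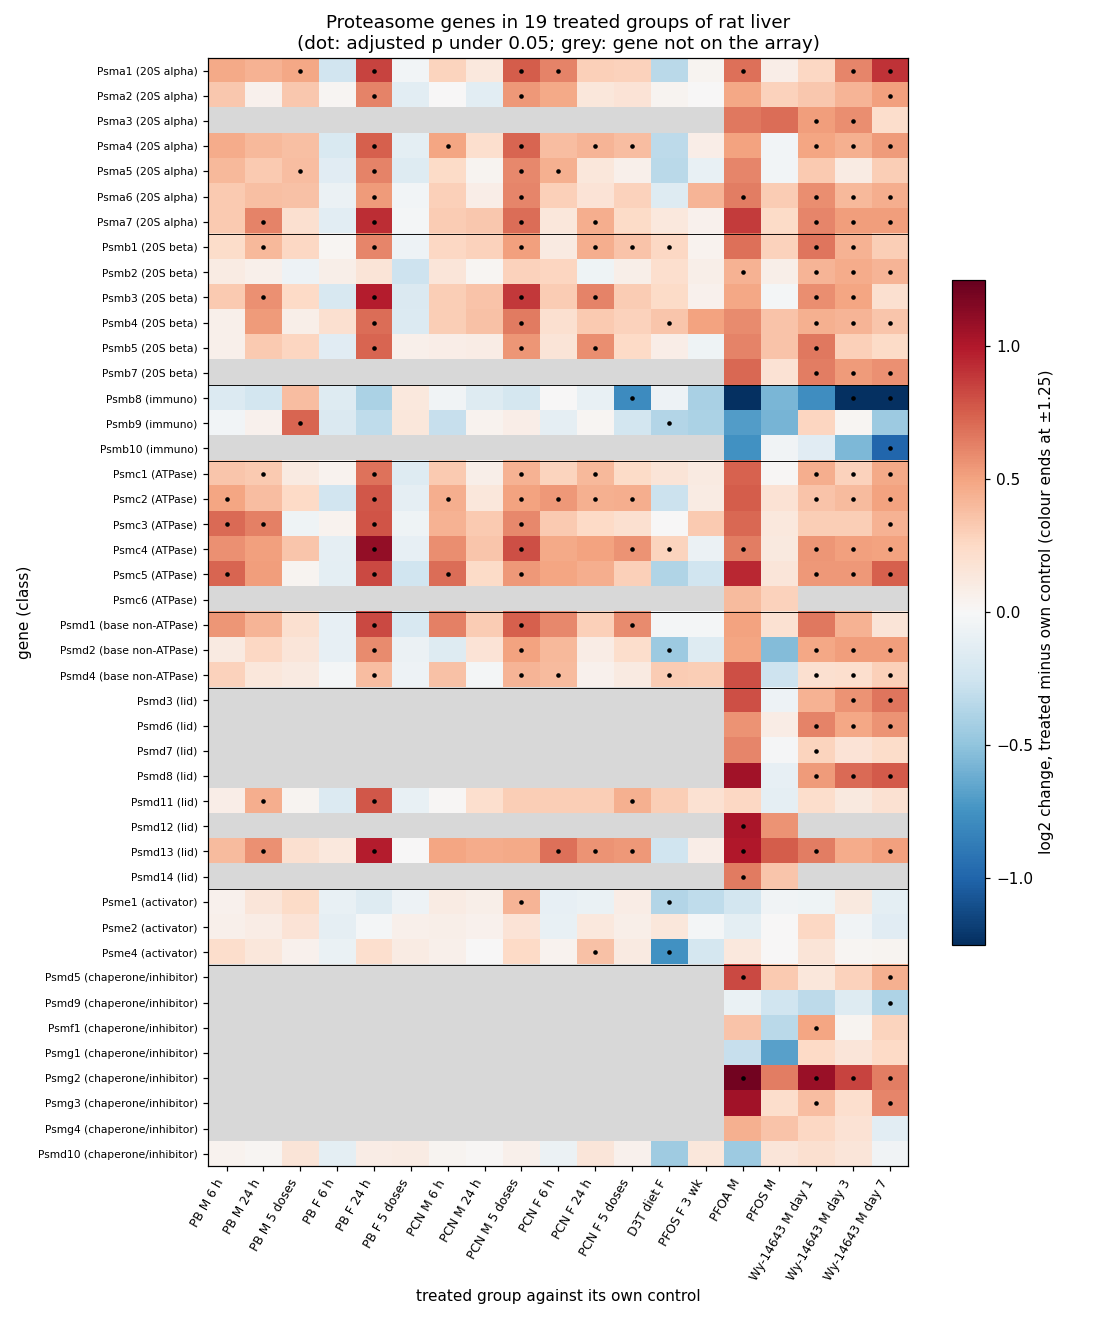
Log2 change of each proteasome gene (vertical axis, grouped by class) in each treated group against its own control (horizontal axis), with dots where the adjusted p was under 0.05 and grey where the array lacks the gene. Red columns stand out for phenobarbital females at 24 h, PCN males after 5 doses, PFOA and Wy-14643, while Psmb8 is blue in most columns; PB is phenobarbital, M and F are male and female, and the D3T rises of Psmb1, Psmb4, Psmc4 and Psmd4 turn negative with median scaling.

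After a single dose of phenobarbital, females had raised most of the constitutive particle by 24 h. Here 20 of 27 genes rose and none fell, and 35 of 49 member probe sets passed as higher, against 2.31% of all 8740 tested (1.73% were lower). The median change of the 27 genes was 0.68, against 0.0 over all probe sets. By class, 6 of 6 alpha, 4 of 5 beta, 5 of 5 ATPase, 3 of 3 other base and 2 of 2 lid genes rose, with medians of 0.69, 0.70, 0.79, 0.59 and 0.88. Neither of the 2 immunoproteasome genes (median -0.36) nor any of the 3 activator genes (median -0.02) passed.

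Psmc4, an ATPase of the base, read 7.58, 7.64, 7.72, 7.80 and 7.99 in vehicle females at 24 h and 8.28, 8.34, 8.86, 9.31 and 9.46 with phenobarbital. All treated rats lay above all vehicle rats, and the means, 8.85 ± 0.54 and 7.75 ± 0.16 (SD, n = 5 each), differed by 1.10 (SE 0.18, 2.15-fold, adjusted p = 5.7e-06). Psmb3, a beta subunit, read 9.25, 9.26, 9.28, 9.28 and 9.36 with vehicle and 9.76, 9.88, 10.05, 10.73 and 10.91 with phenobarbital. The groups did not overlap, and the change was 0.98 (SE 0.14, 1.97-fold, adjusted p = 7.1e-07). Psmd13, a lid subunit, read 5.93, 6.03, 6.10, 6.22 and 6.37 with vehicle and 6.61, 6.76, 6.95, 7.54 and 7.70 with phenobarbital. Again every treated rat was higher, by 0.98 on average (SE 0.15, 1.98-fold, adjusted p = 2e-06). Psmb5, the chymotrypsin-like catalytic subunit whose promoter is printed above, read 10.04 to 10.52 with vehicle and 10.64 to 11.53 with phenobarbital and rose by 0.73 (SE 0.11, adjusted p = 1e-06).

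Rats 4506 and 4509 were the highest pair of this group in 21 of the 27 genes, with Psmc4 at 9.46 and 9.31 and Psmb3 at 10.91 and 10.73. Their arrays were the dimmest and the brightest of the group as deposited, with mean intensities of 233 and 454. Without both, 18 of 49 probe sets passed, all higher, and 11 of the 20 genes kept their call, among them Psmc4 at 0.74, Psmb3 at 0.61 and Psmd13 at 0.64. Fitting only the compared groups gave 8 probe sets in place of 35.

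No immunoproteasome or activator gene passed in the same females. Psmb8 read 8.62, 8.81, 8.83, 9.14 and 9.16 with vehicle and 8.14, 8.43, 8.59, 8.67 and 8.71 with phenobarbital. The treated rats sat low but overlapped with vehicle, and the change of -0.40 (95% interval -0.90 to 0.09) did not pass (adjusted p = 0.56). Psmb9 changed by -0.32 (adjusted p = 0.48), Psme1 by -0.16 and Psme2 by -0.02, none of which passed. Of the 13 measured genes of an interferon and antigen presentation list, 1 fell, the GTPase Gbp2 at -0.50, and the median was -0.28. No marker of macrophages (6 measured) or of lymphocytes and other leukocytes (8 measured) passed.

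After 5 doses of phenobarbital no subunit passed in females. There none of the 49 probe sets passed in limma (unadjusted, 1 was higher and 3 lower), against 1.45% of all probe sets higher and 1.02% lower, and 7 of 27 genes lay above 0 with a median of -0.06. Psmc4 read 7.50, 7.71, 7.87, 8.20 and 8.60 with vehicle and 7.68, 7.73, 7.79, 7.97 and 8.21 with phenobarbital, and the treated values lay inside the vehicle range. Tested directly, the phenobarbital effect after 5 doses minus that at 24 h was lower for 28 probe sets and higher for 1, against 1.04% and 0.584% of all. By gene, 16 of 27 differed, all downward, with a median of -0.78 over the 27. The difference was -1.20 for Psmc4 (SE 0.25, adjusted p = 0.0019), -1.16 for Psmb3 (SE 0.20, adjusted p = 0.00019) and -1.08 for the ATPase Psmc5 (SE 0.23, adjusted p = 0.003). Psmb8 differed by 0.54 (SE 0.35, adjusted p = 0.80), which did not pass. The probe set that was higher was a dimmer one of Psmb9, at 0.75 (adjusted p = 0.0081), while the leading one did not pass (0.47, adjusted p = 0.66). Without rats 4506 and 4509, 6 probe sets were lower and the genes that still differed were Psmb3, Psmc1, Psmc2 and Psmd11. With only the groups compared, 4 probe sets passed.

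At 6 h, phenobarbital females had no passing probe set in limma (unadjusted, none higher and 1 lower, against 1.3% of all in each direction), and 7 of 27 genes lay above 0. Phenobarbital males at 6 h had 3 passing probe sets, against 0.618% of all (0.114% lower), and all 3 were ATPases. Psmc5 read 8.14, 8.23, 8.31 and 8.58 in vehicle males and 8.69, 8.95, 9.06, 9.16 and 9.35 with phenobarbital. No treated rat fell to the vehicle range, and the change was 0.73 (SE 0.17, adjusted p = 0.019), beside 0.71 for Psmc3 (adjusted p = 0.019) and 0.49 for Psmc2 (adjusted p = 0.042). The count of 3 rested on few rats, being 0 without 1005 or 4004, 1 without 4001 or 4002 and 6 without 4005. It was 16 with the array of rat 1003 kept, 5 with a pseudocount of 1 and 1 with only the groups compared.

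At 24 h, phenobarbital males had 15 higher probe sets, against 1.37% of all (0.938% lower), and 7 of 27 genes rose, with 26 above 0 and a median of 0.38. The alpha subunit Psma7 read 9.26, 9.48, 9.49, 9.51 and 9.62 with vehicle and 9.78, 9.90, 10.14, 10.27 and 10.38 with phenobarbital. All treated rats were higher, by 0.62 on average (SE 0.13, adjusted p = 0.0023). The other genes that rose were the ATPases Psmc1 and Psmc3, the beta subunits Psmb1 and Psmb3 and the lid subunits Psmd11 and Psmd13. Dimmer probe sets of Psmb4, Psmb5 and Psmd1 also passed, at 0.46 to 0.88, where the leading ones did not. The count was 9 without vehicle rat 1006 or 1010, 8 without 4008 and 7 without 4009, and it was 5 with median scaling in place of quantiles and 9 with rat 1003 kept or only the groups compared. Whether the effect differed between females and males was tested as an interaction, and 0 of 49 probe sets passed in limma at 24 h (unadjusted, 12 higher and 1 lower in females, with 0.0114% of all higher and 0% lower). The difference was 0.59 for Psmc4 (95% interval 0.10 to 1.09) and 0.41 for Psmb3 (0.01 to 0.82).

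After 5 doses, phenobarbital males had 4 higher probe sets, against 2.56% of all (2.35% lower), and 3 genes rose: Psma1 at 0.48, Psma5 at 0.39 and the immunoproteasome subunit Psmb9 at 0.73. The remaining probe set was a dimmer one of a beta gene whose leading one did not pass. Psmb9 read 6.86, 7.05, 7.61, 7.67 and 7.97 with vehicle and 7.58, 8.12, 8.20, 8.31 and 8.60 with phenobarbital. The groups overlapped, and the change (SE 0.18, adjusted p = 0.0065) gave an adjusted p of 0.057 without vehicle rat 1012. The dimmer probe set of Psmb9 did not pass. The count was 2 without rat 1012 or 4011 and also 2 with median scaling. It was 1 with only the groups compared. In phenobarbital males the 5-dose minus 24 h difference passed for no probe set in limma (unadjusted, 1 higher and 6 lower, all probe sets 0.0572% and 0.16%). The interaction of sex with phenobarbital after 5 doses passed for 0 of 49 probe sets (unadjusted, none higher and 15 lower in females, with 0.0686% of all higher and 0.0343% lower), and for 1 without rat 4012.

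PCN showed its widest proteasome change in males after 5 doses. There 19 of 27 genes rose and none fell, and 29 probe sets were higher, against 2.93% of all (1.84% lower), with a median change of 0.51. By class 6 of 6 alpha, 4 of 5 beta, 5 of 5 ATPase and 3 of 3 other base genes rose, with medians of 0.65, 0.55, 0.54 and 0.50. None of the 2 lid genes (median 0.39) or the 2 immunoproteasome genes (median -0.07) passed, and of the 3 activator genes Psme1 rose by 0.42 (SE 0.09, adjusted p = 0.0017). The dimmer probe sets of Psme1 did not pass. With only the groups compared, 7 probe sets passed.

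In these males Psmb3 read 8.98, 9.09, 9.10, 9.13 and 9.63 with vehicle and 9.35, 10.08, 10.12, 10.16 and 10.62 with PCN. The lowest PCN rat, 5011, and the highest vehicle rat, 1012, overlapped, and the change was 0.88 (SE 0.14, 1.84-fold, adjusted p = 9.2e-06). The alpha subunit Psma1 read 8.46, 8.50, 8.57, 8.57 and 8.65 with vehicle and 8.95, 9.23, 9.30, 9.37 and 9.72 with PCN. Every PCN rat was higher, by 0.76 on average (SE 0.13, 1.70-fold, adjusted p = 2.8e-05). Rat 5011 was the lowest of its group in 20 of the 27 genes. Psmb5 rose by 0.55 (SE 0.11, adjusted p = 0.00033), and Psmc4 by 0.81 (SE 0.18, adjusted p = 0.0012).

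In males after 1 dose PCN moved few subunits. At 6 h 4 probe sets were higher, against 1.3% of all (0.572% lower), and the genes were the ATPases Psmc5 (0.70, adjusted p = 0.018) and Psmc2 (0.45, adjusted p = 0.043) and the alpha subunit Psma4 (0.49, adjusted p = 0.035). That count was 0 without vehicle rat 1005, 1 without 1004 or 5003 and 2 without 5002 or 5005. It was 21 with rat 1003 kept, 2 with median scaling and 0 with only the groups compared. At 24 h none passed in limma (unadjusted, 13 higher and none lower), against 0.469% of all higher and 0.103% lower, though 24 of 27 genes lay above 0, and 1 passed without vehicle rat 1009 or 1010. Neither the time difference of the PCN effect in males (5 doses minus 24 h, unadjusted 16 higher and none lower, all probe sets 0.114% and 0.0915%) nor that in females (none higher and 2 lower, all probe sets 0.309% and 0.275%) passed for any probe set in limma.

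In females PCN raised some subunits at all 3 times. At 6 h, 9 probe sets and 5 of 27 genes were higher, against 1.51% of all probe sets (0.732% lower). Psmd13 read 6.31, 6.33, 6.37, 6.51 and 6.66 with vehicle and 6.87, 7.16, 7.17, 7.20 and 7.22 with PCN, so no rat overlapped (0.69, SE 0.15, adjusted p = 0.0021). The count was 5 without rat 1501 or 5501 and 2 with rat 1003 kept. At 24 h 14 probe sets and 9 of 27 genes were higher, against 2.29% of all (1.41% lower), and Psmb5 rose by 0.58 (SE 0.11, adjusted p = 0.0002) with all PCN rats, at 10.66 to 11.01, above the highest vehicle rat at 10.52. Median scaling gave 7 there and keeping rat 1003 gave 9.

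After 5 doses of PCN, females had 10 higher and 1 lower probe set, against 4.45% and 3.98% of all, with 7 of 27 genes higher. The base subunit Psmd1 rose by 0.59 (adjusted p = 0.026), Psmc4 by 0.56 (adjusted p = 0.031) and Psmd13 by 0.54 (adjusted p = 0.011). For Psmb5 the dimmer probe sets passed at 0.42 and 0.54, and the leading one did not (0.25, adjusted p = 0.18). Psmb8, the immunoproteasome counterpart of Psmb5, was the gene that fell. It read 8.15, 8.45, 8.80, 8.83 and 9.29 with vehicle and 7.36, 7.46, 8.19, 8.23 and 8.34 with PCN, so the PCN rats were low and the groups overlapped. The change of -0.79 (SE 0.25, adjusted p = 0.03) lost its call without any 1 of rats 1511, 1512, 1514, 5511 and 5512 (-0.77 to -0.64). The count of 11 became 2 without rat 1515, 4 without 5512, 5 without 1511, 6 without 1512 and 7 without 5514 or 5515. It was 2 with median scaling, 6 with rat 1003 kept and 1 with only the groups compared. The interferon regulator Irf1 fell by 1.10 on the log2 scale in the same females, the only one of 13 on its list to pass. No macrophage or leukocyte marker passed. The median of the 6 macrophage markers was -0.39, with summed intensities of 1205 to 1966 against 1518 to 2260 with vehicle. Of 6 hepatocyte markers Apoa1 rose (0.58) and Apoc3 (-0.56) and Cps1 (-0.38) fell. The bile duct marker Epcam rose by 0.78. The part of these cells in the Psmb8 value was not tested. The sex interaction of PCN passed for 0 of 49 probe sets in limma at 24 h (unadjusted, 5 higher and none lower in females, all probe sets 0.0229% and 0%) and after 5 doses (none higher and 11 lower, all probe sets 0.32% and 0.286%, and 1 passed without rat 5011).

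**Figure D2:**
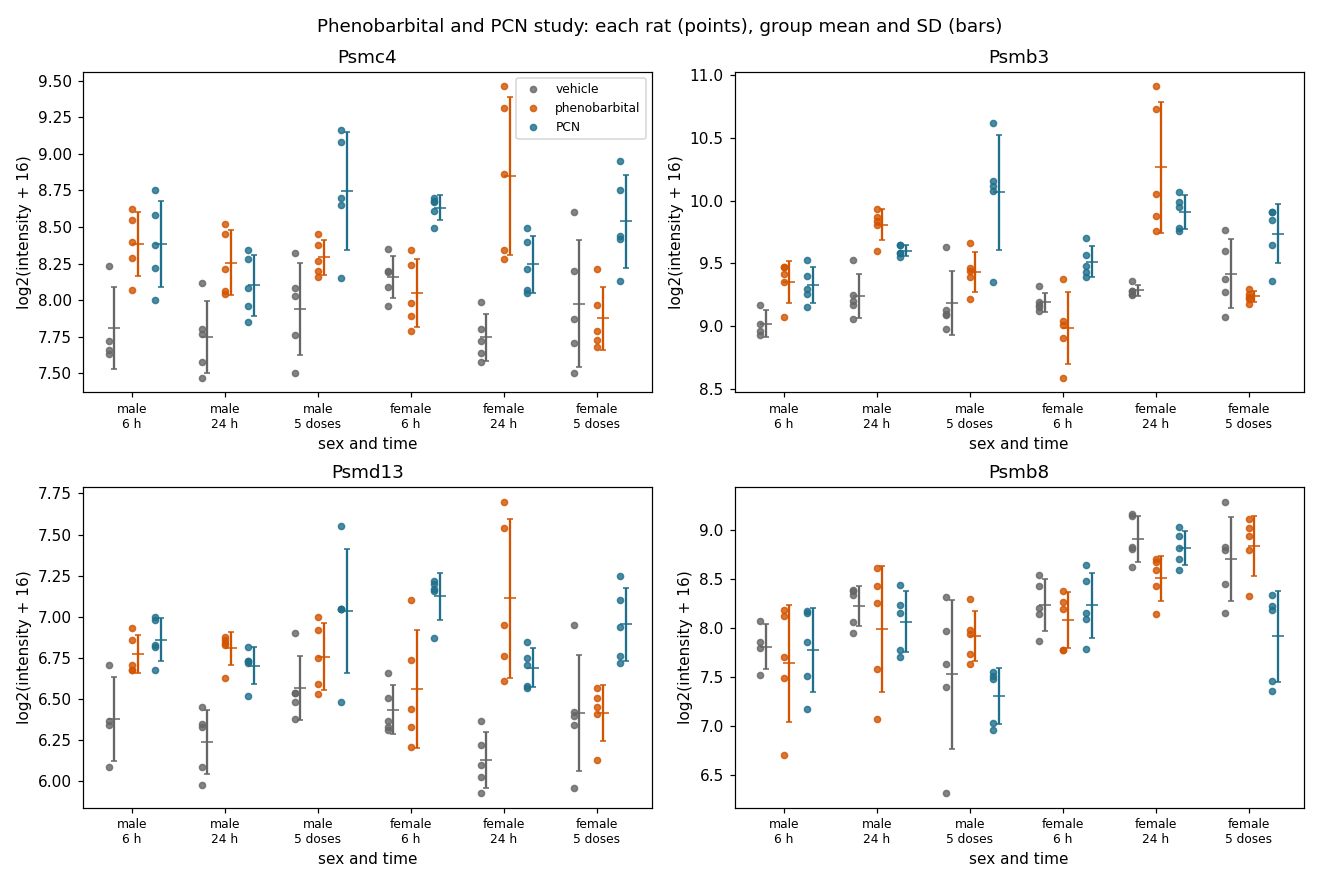
Log2(intensity + 16) of the ATPase Psmc4, the beta subunit Psmb3, the lid subunit Psmd13 and the immunoproteasome subunit Psmb8 in every rat of the phenobarbital and PCN study (points), by sex and time, with group mean and SD (bars). In phenobarbital females at 24 h Psmc4 lies between 8.28 and 9.46, above the vehicle rats at 7.58 to 7.99, and Psmb8 after 5 doses of PCN in females reaches down to 7.36.

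Phenobarbital and PCN were given at the same dose, and their treated rats were compared directly. In females more subunits were higher with phenobarbital at 24 h and more were higher with PCN after 5 doses. At 24 h, 11 probe sets were higher and 1 lower with phenobarbital, against 2.33% and 2.14% of all, and 7 genes were higher, such as Psma1 at 0.54 (SE 0.13, adjusted p = 0.0077) and Psmc4 at 0.61 (SE 0.18, adjusted p = 0.03). The lower one was a dimmer probe set of Psmb9, at -0.47 (adjusted p = 0.015). That difference passed for 0 probe sets without rats 4506 and 4509, for 4 without either of them alone, for 22 without 4507, 7 without 5510 and 6 without 5506. It passed for 3 with only the groups compared and for 6 with rat 1003 kept. After 5 doses, 16 probe sets were lower and 1 higher with phenobarbital, against 3.6% and 3.31% of all, and 11 genes were lower and 1 higher. Psmd1 differed by -0.79 (SE 0.18, adjusted p = 0.002) and Psmc2 differed by -0.56 (SE 0.12, adjusted p = 0.00075), and in both every PCN rat was above every phenobarbital rat. Psmb8 was the gene higher with phenobarbital, at 0.92 (SE 0.25, adjusted p = 0.0098), and at 0.78 (adjusted p = 0.058) without PCN rat 5511. In this comparison 3 of 6 macrophage markers were also higher with phenobarbital (Lyz2 0.96, Aif1 0.90, C1qb 0.67) and none was lower. Of 13 interferon list genes 3 were higher (Irf1 1.18, Gbp2 0.55, B2m 0.38) and none was lower. Hepatocyte markers went both ways, and the bile duct marker Epcam (-0.52) and the blood marker Hbb (-0.88) were lower. The part of these cells in the Psmb8 difference was not tested.

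In males after 5 doses, 8 probe sets were lower and 1 higher with phenobarbital than with PCN, against 1.62% and 1.45% of all. Psmc3 differed by -0.65 (SE 0.16, adjusted p = 0.011), Psmb3 by -0.63 (SE 0.14, adjusted p = 0.0039) and Psmb4, a beta subunit, by -0.58 (SE 0.16, adjusted p = 0.032). Psmb9 was higher with phenobarbital by 0.65 (SE 0.18, adjusted p = 0.027), while its dimmer probe set did not pass. That count of 9 became 18 without rat 5011 and 4 without 4014, 5013 or 5015, and 0 with only the groups compared. At 24 h in males 1 probe set differed, a dimmer one of Psmd1 at 0.43 (adjusted p = 0.025), against 0.641% of all higher and 0.549% lower, and none did without rat 4009, 4010, 5008 or 5009. For Psmc4 there the difference was 0.15 (95% interval -0.20 to 0.51). These 4 pairs of groups were the ones compared, each with p-values adjusted within its own fit.

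Genes known to work with the proteasome were read from lists of other genes, which were chosen with earlier results of these data known. Of 9 measured ubiquitin pathway partners, phenobarbital females at 24 h raised the shuttle factor Ubqln1 by 0.66 and the 26S-associated Txnl1 by 0.57. The core assembly factor Pomp rose with PCN in 5-dose males (0.29), 24 h females (0.41) and 5-dose females (0.23). At 6 h Txnl1 also rose in males with phenobarbital (0.53) and PCN (0.45), and Nfe2l2 fell in phenobarbital females (-0.85). Of 16 measured NRF2 targets, 6 rose in phenobarbital females at 24 h, with Nqo1 at 1.51 and the glutathione reductase gene Gsr at 1.45. Of those 16, 4 rose in phenobarbital females after 5 doses, 11 in PCN males after 5 doses (Akr7a3 2.06, Gsr 1.81, Nqo1 1.51) and 12 in PCN females after 5 doses. Phenobarbital males raised 5 of the 16 at 24 h and 9 after 5 doses, where 3 proteasome genes rose. None of the 16 fell in these 6 groups, in which 1.37% to 4.45% of all probe sets were higher.

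PFOA raised subunits of the core, the ATPase ring and the lid in male liver. Of 44 proteasome genes 9 rose and none fell, with 10 of 58 probe sets higher against 3.23% of all 31042 tested (2.83% lower). The median change of the 44 genes was 0.61, against 0.0 over all probe sets, and 36 lay above 0. Those that rose were 2 of 7 alpha genes (Psma1, Psma6), 1 of 6 beta (Psmb2), 1 of 6 ATPase (Psmc4), 3 of 8 lid (Psmd12, Psmd13, Psmd14) and 2 of 8 chaperones and inhibitors (Psmg2, Psmd5). Class medians were 0.64, 0.61, 0.73, 0.73 and 0.40 in that order, and -0.76 for the 3 immunoproteasome and -0.12 for the 3 activator genes, of which none passed.

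Psmg2, a chaperone that assembles the alpha ring, read 6.95, 7.04 and 7.38 with vehicle, 8.23, 8.33 and 8.43 with PFOA and 7.48, 7.76 and 8.04 with PFOS. All PFOA rats were higher than vehicle, by 1.21 (SE 0.17, 2.31-fold, adjusted p = 0.014). Psmd12, a lid subunit, read 9.14, 9.18 and 9.21 with vehicle, 9.99, 10.25 and 10.34 with PFOA and 9.65, 9.70 and 9.86 with PFOS. PFOA lay above vehicle by 1.02 (SE 0.10, 2.03-fold, adjusted p = 0.0046). Psmd13 read 8.76, 8.97 and 9.06 with vehicle and 9.66, 9.93 and 10.20 with PFOA, with no overlap (1.00, SE 0.21, adjusted p = 0.046). The catalytic Psmb5, at 10.77, 10.82 and 10.92 with vehicle and 11.36, 11.50 and 11.51 with PFOA, did not overlap either, and its 0.62 (95% interval 0.14 to 1.10) did not pass (adjusted p = 0.14).

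In the same rats Psmb8 read 8.90, 9.32 and 10.32 with vehicle, 6.50, 7.10 and 8.87 with PFOA and 8.47, 8.87 and 9.47 with PFOS. The PFOA rats were all below vehicle and widely spread, and the change of -2.02 (SE 0.68, 95% interval -3.64 to -0.40) did not pass (adjusted p = 0.15). Psmb10 changed by -0.76 (adjusted p = 0.39) and Psmb9 by -0.70 (adjusted p = 0.61). Irf1 fell by 2.23 on the log2 scale, the only gene of 23 on the interferon list to pass, and the median of that list was -0.66. Beside these values the summed intensity of 9 macrophage markers was 4905 to 7523 with PFOA and 9059 to 12090 with vehicle, and the marker Cd14 fell by 1.65. Of 6 endothelial markers Kdr (-1.83) and Tek (-1.10) fell, with summed intensities of 2753 to 3190 with PFOA and 4147 to 5616 with vehicle, and of 5 stellate cell markers Col3a1 fell by 0.69 (1716 to 2305 against 2734 to 3294). Of 6 hepatocyte markers Apoa1 (-1.27) and Cps1 (-0.22) fell, and of 3 bile duct markers Epcam rose by 1.28 (715 to 833.1 against 286.3 to 381.4). No leukocyte marker of 10 passed. In whole liver, fewer cells of a type and less RNA per cell cannot be told apart, and the part of these cells in the Psmb8 and other subunit values was not tested.

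The count of 10 for PFOA was 2 without vehicle rat R95435 or R95436, 3 without PFOA rat R95472 and 5 without R95471, and it was 6 with only the groups compared and with the dimmest 33.3% of probe sets left out. Of its 9 genes only Psmd12 passed without each of the 6 arrays in turn. With median scaling 4 of the 9 genes kept their call. With only the groups compared 3 did, and with the dimmest 33.3% left out 4 did.

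PFOS at 10 mg/kg/day in males is set beside PFOA at 20 mg/kg/day without a test, because the doses differ. With PFOS none of 58 probe sets passed in limma (unadjusted, 6 higher and 1 lower), against 0.283% of all higher and 0.177% lower, and 27 of 44 genes lay above 0 with a median of 0.11. Psmg2 changed by 0.64 (95% interval 0.24 to 1.04, adjusted p = 0.19) and Psmd13 by 0.76 (0.25 to 1.27, adjusted p = 0.22), both with every PFOS rat above vehicle. Psmc4 changed by 0.12 (-0.13 to 0.38) and Psmb8 by -0.57 (-2.19 to 1.04). Without PFOS rat R95480, or with the dimmest 33.3% left out, 1 probe set passed. Of 23 ubiquitin partners, PFOA raised the transcription factor Nfe2l1 by 0.89, Ufd1 by 0.86 and the ubiquitin receptor Adrm1 by 0.53, and PFOS raised none. Of 20 NRF2 targets PFOA raised 1, Srxn1, by 5.30, against 3.23% of all probe sets higher.

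Wy-14643 raised the proteasome from the first day on. On day 1, 23 of 41 genes rose and none fell, with 23 of 44 probe sets higher against 5.94% of all 15866 tested (5.52% lower). On day 3, 20 rose and 1 fell, against 5.56% and 5.22%, and on day 7, 22 rose and 3 fell, against 6.57% and 6.49%. The medians of the 41 genes were 0.42, 0.40 and 0.35, with 0.0 over all probe sets each time. On day 1 the genes that rose were 4 of 7 alpha, 6 of 6 beta, 4 of 5 ATPase, 2 of 3 other base, 4 of 6 lid and 3 of 8 chaperone genes. On day 7 they were 5 of 7 alpha, 3 of 6 beta, 5 of 5 ATPase, 2 of 3 other base, 4 of 6 lid and 3 of 8 chaperone genes, and no activator gene passed on any day.

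**Figure D3:**
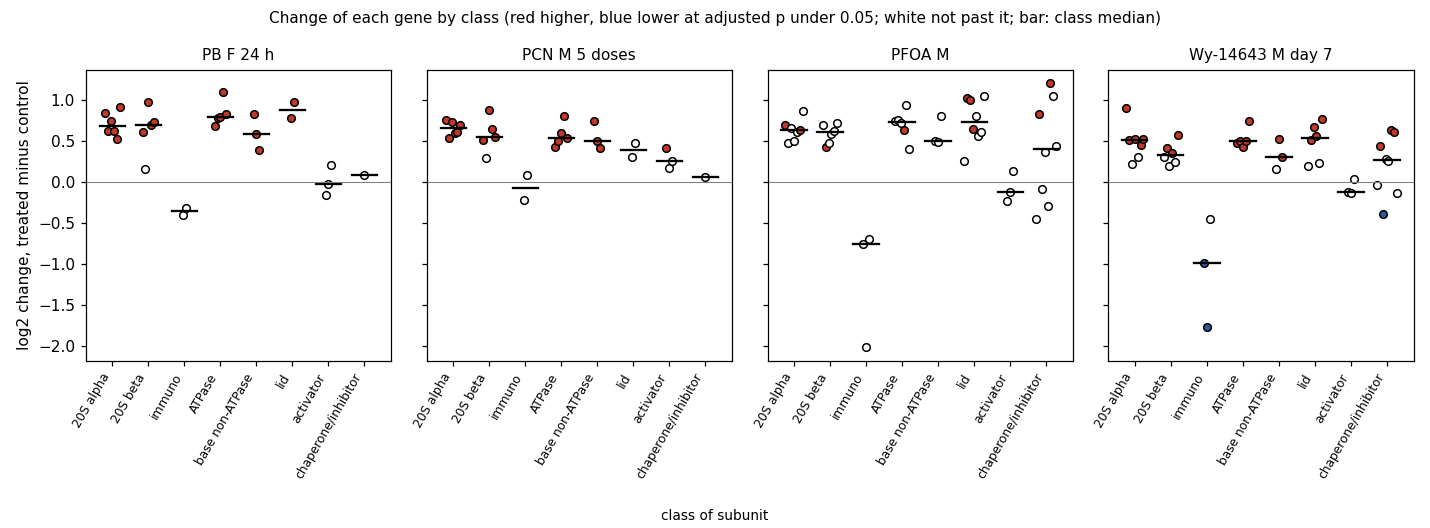
Log2 change of each gene (points; red higher and blue lower at an adjusted p under 0.05, white not past it) by class of subunit, with the class median as a bar, in phenobarbital females at 24 h, PCN males after 5 doses, PFOA males and Wy-14643 males on day 7. The ATPase medians are 0.79, 0.54, 0.73 and 0.50 and those of the immunoproteasome -0.36, -0.07, -0.76 and -0.99.

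On day 7 Psma1 read 9.75, 9.77 and 10.03 with vehicle and 10.61, 10.71 and 10.94 with Wy-14643. All treated rats were higher, by 0.90 (SE 0.12, 1.87-fold, adjusted p = 0.00037). Psmd8, a lid subunit, read 10.01, 10.18 and 10.25 with vehicle and 10.86, 10.89 and 11.00 with Wy-14643, with no overlap (0.77, SE 0.10, adjusted p = 0.00029). Psmc5 read 9.11, 9.33 and 9.44 with vehicle and 9.98, 10.04 and 10.09 with Wy-14643, again apart (0.75, SE 0.14, adjusted p = 0.0038). Psmb7, the trypsin-like catalytic subunit, read 10.89, 10.98 and 11.00 with vehicle and 11.46, 11.51 and 11.60 with Wy-14643 and rose by 0.57 (SE 0.06, adjusted p = 3.9e-05), after 0.64 on day 1 and 0.53 on day 3.

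The catalytic Psmb5 passed on day 1, going from 10.90, 10.98 and 11.06 to 11.56, 11.64 and 11.71 (0.66, SE 0.10, adjusted p = 0.0012). It changed by 0.30 on day 3 (adjusted p = 0.075) and 0.24 on day 7 (adjusted p = 0.16), and the day 7 minus day 1 difference of -0.42 (95% interval -0.73 to -0.11) did not pass (adjusted p = 0.17). Psmg2 rose by 1.08 on day 1 (SE 0.17, 2.11-fold, adjusted p = 0.0012), 0.84 on day 3 and 0.64 on day 7. It read 7.27, 7.39 and 7.85 with vehicle and 8.44, 8.61 and 8.70 with Wy-14643 on day 1, with all treated rats higher. Psmd9, an assembly chaperone of the base, went the other way, at -0.33 on day 1 (adjusted p = 0.053), -0.16 on day 3 (adjusted p = 0.36) and -0.39 on day 7 (SE 0.10, adjusted p = 0.024). No probe set of the 44 passed in the day 7 minus day 1 test in limma (unadjusted, 2 higher and 6 lower), against 1.05% of all higher and 0.819% lower.

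Of the immunoproteasome subunits, Psmb8 fell on days 3 and 7 and Psmb10 on day 7 in these males. Psmb8 read 9.62, 10.09 and 10.46 with vehicle and 9.08, 9.09 and 9.66 with Wy-14643 on day 1, where the groups overlapped (-0.78, adjusted p = 0.089). On day 3 it read 10.05, 10.35 and 10.40 with vehicle and 8.94, 9.01 and 9.02 with Wy-14643, and on day 7 10.20, 10.37 and 10.42 against 7.87, 8.79 and 9.01. All treated rats were lower on both days, by -1.28 (SE 0.27, adjusted p = 0.0099) and -1.77 (SE 0.27, 0.292 of vehicle, adjusted p = 0.00096). Psmb10 read 8.00, 8.11 and 8.64 with vehicle and 6.99, 7.22 and 7.55 with Wy-14643 on day 7 (-0.99, SE 0.20, adjusted p = 0.0046), after -0.56 on day 3 (adjusted p = 0.09) and -0.14 on day 1 (adjusted p = 0.78). Every treated rat was below every vehicle rat on days 3 and 7. Psmb9 changed by 0.27, 0.02 and -0.45 on days 1, 3 and 7 and passed on none. The calls of Psmb8 on days 3 and 7 and of Psmb10 on day 7 held without each of 6 arrays in turn. The day 7 minus day 1 differences, -1.0 for Psmb8 (95% interval -1.83 to -0.16, adjusted p = 0.23) and -0.86 for Psmb10 (-1.45 to -0.26, adjusted p = 0.15), did not pass.

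Of 20 genes of the interferon list 4 fell on day 3 and 7 on day 7, against 5.22% and 6.49% of all probe sets lower, among the latter Irf7 at -1.18, Usp18 at -0.80 and Irf9 at -0.75. On day 1 the list stood near the background, with 1 of 20 lower against 5.52% of all and a median of 0.09. The peptide transporter gene Tap2, which lies in the same antigen presentation pathway as Psmb8, fell by 1.03 on day 3 and by 0.57 on day 7. Of 8 macrophage markers 3 fell on day 7, C1qa at -1.03, Cd14 at -0.90 and Csf1r at -0.70, and the summed intensity of the 8 was 2502 to 2954 with Wy-14643 and 4215 to 6721 with vehicle. On day 3 it was 3760 to 5032 against 5140 to 7928 and no marker passed, and on day 1 it was 4357 to 4948 against 4517 to 5348. Of 9 leukocyte markers Ptprc fell by 0.55 on day 3 and by 0.43 on day 7. Cd3d, Cd8a and Lck, defining markers of T cells, were at 0 in every group, and the summed level on day 7 was 569.7 to 1038 with Wy-14643 and 1009 to 1546 with vehicle. The part of these cells in the Psmb8 and Psmb10 values was not tested. Also on day 7, of 5 stellate cell markers Pdgfrb fell by 0.70, of 6 hepatocyte markers Apoa1 (-0.86) and Apoc3 (-0.77) fell, and of 3 bile duct markers Epcam rose by 0.91. The 2 measured blood markers, Alas2 (-1.09) and Hbb (-0.85), fell too. On day 3 Pdgfrb (-0.56), Hbb (-0.61) and the hepatocyte markers Apoc3 (-0.38) and Cps1 (-0.35) were lower. On day 1 the hepatocyte markers Apoa1 (-0.53) and Cps1 (-0.36) were lower. Of 21 measured ubiquitin partners 4, 1 and 4 rose on days 1, 3 and 7, against 5.94%, 5.56% and 6.57% of all probe sets. The list medians were 0.12, 0.10 and 0.08. The ubiquitin receptor Adrm1 rose on all 3 days, by 0.74, 0.83 and 0.70. Uba1 rose by 0.25 on day 1 and was the 1 partner that fell on day 7 (-0.27). Its day 7 minus day 1 difference was -0.53 (adjusted p = 0.0048). Of 19 NRF2 targets 1 rose (Cbr1) and 1 fell (Aox1, -0.87) on day 1, against 5.94% and 5.52% of all probe sets. On day 3, 2 rose (Me1 3.71, Cbr1 0.96), against 5.56% of all higher. On day 7, 3 rose (Me1 3.61, Cbr1 1.35, Pgd 0.88), against 6.57%. Wy-14643 arrays were brighter than vehicle arrays on days 1 and 3, with mean intensities of 449 to 563 against 364 to 429 and of 533 to 614 against 317 to 449, and overlapped on day 7 at 410 to 580 against 348 to 486. The part of brightness in the counts was not tested beyond the scalings. With only the groups compared, 7 probe sets passed on day 3 and 14 on day 7.

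**Figure D4:**
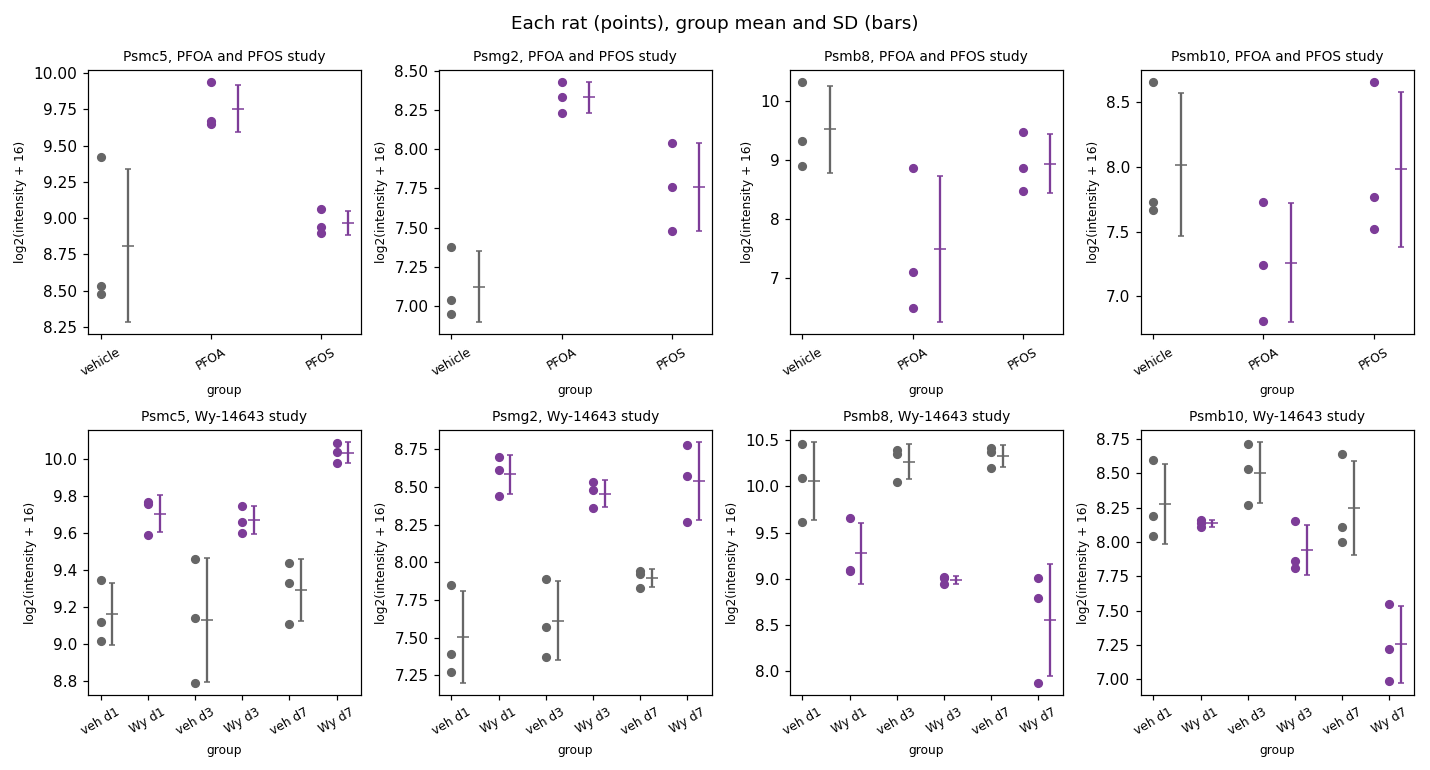
Log2(intensity + 16) of the ATPase Psmc5, the assembly chaperone Psmg2 and the immunoproteasome subunits Psmb8 and Psmb10 in each rat (points) of the PFOA and PFOS study (upper row) and the Wy-14643 study (lower row), with group mean and SD (bars). Psmb8 on day 7 lies between 7.87 and 9.01 with Wy-14643 and between 10.20 and 10.42 with vehicle, while Psmc5 lies between 9.98 and 10.09 and between 9.11 and 9.44.

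The D3T diet did not move the proteasome in 1 direction. Of 27 genes 4 rose and 4 fell, with 8 probe sets higher and 5 lower of 49, against 5.22% and 7.33% of all 8740, and the median change was -0.02. Psmb4 read 9.14, 9.22, 9.24 and 9.29 on control diet and 9.53, 9.54, 9.60 and 9.63 on D3T, and the base subunit Psmd4 rose with it. The 4 that rose, Psmb4 at 0.35 (SE 0.04, adjusted p = 0.0038), Psmd4 at 0.32, Psmc4 at 0.28 and Psmb1 at 0.26, turned to -0.43, -0.38, -0.43 and -0.58 with median scaling. Under that scaling 4 probe sets were higher and 36 lower, and the median of all probe sets shifted by 0.20, so these directions depend on how arrays were brought to 1 scale. The D3T arrays were far dimmer, with mean intensities of 93.3 to 117 against 276 to 417 for control diet.

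The genes that fell on D3T were the activator genes Psme4 (-0.76, SE 0.09, adjusted p = 0.0042) and Psme1 (-0.37, adjusted p = 0.035), the base subunit Psmd2 (-0.45, adjusted p = 0.044) and the immunoproteasome subunit Psmb9 (-0.37, adjusted p = 0.014). The next brightest probe set of Psme1 read 9.97 to 10.55 on D3T and 9.95 to 10.09 on control diet and did not pass. With single arrays left out, the call of Psme1 was lost in 6 of 8 fits (adjusted p up to 0.099) and that of Psmd2 in 7 of 8 (up to 0.11), as were those of Psmc4 in 6 and Psmb1 in 7. Psme4, Psmb9 and Psmb4 kept theirs in all 8. Psmb9 read 7.88, 7.92, 8.08 and 8.11 on control diet and 7.53, 7.63, 7.66 and 7.66 on D3T, with all D3T rats lower. Its dimmer probe set read 7.50 to 7.96 and 7.41 to 7.71, so the groups overlapped there, and it did not pass. Psmb5 read 10.05, 10.19, 10.25 and 10.33 on control diet and 10.23, 10.23, 10.25 and 10.40 on D3T, overlapping, and changed by 0.08 (95% interval -0.10 to 0.25). Dimmer probe sets of the alpha subunits Psma1 (1.71) and Psma2 (-0.82) passed in opposite directions where the leading ones did not. Of 16 NRF2 targets 9 rose, with the glutathione transferase Gstp1 at 4.79, Akr7a3 at 3.36 and Nqo1 at 2.72. The summed intensity of 6 macrophage markers was 1142 to 1416 on D3T and 1594 to 1874 on control diet, and 3 of the 6 fell, with Csf1r at 0 in every control rat. Of 8 leukocyte markers Ptprc (-0.97) and Cd74 (-0.80) fell and Cd79b rose by 0.51, with Cd2 and Cd3d at 0 in both groups and the summed intensity at 503.8 to 855.9 on D3T and 844.1 to 1083 on control diet. The endothelial marker Lyve1 (-1.30, 1 of 4 to pass), the stellate cell marker Col1a1 (-1.68, 1 of 5) and, of 13 interferon list genes, Ifitm3 (-1.40) and B2m (-0.40) fell as well. So did the hepatocyte markers Serpina1 (-0.31) and Apoa1 (-0.15), 2 of 6, and the blood marker Hbb (-0.58), 1 of 2. The summed intensity of the hepatocyte markers was 38670 to 39750 on D3T and 41770 to 42500 on control diet. The part of these cells in the Psmb9 value was not tested. The count of 13 was 7 without D3T rat 1 and 8 with the dimmest 33.3% left out.

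With PFOS for 3 weeks in 2 females against 2, none of 49 probe sets passed in limma, no member had an unadjusted p under 0.05, and 0% of all 8740 probe sets passed. Psmb5 read 10.61 and 10.86 with vehicle and 10.32 and 11.05 with PFOS, so the treated rats lay on either side of the vehicle pair. Psmb8 read 8.42 and 9.21 with vehicle and 8.13 and 8.67 with PFOS and changed by -0.41 (95% interval -1.95 to 1.13). Psmc4 changed by -0.07 (-1.18 to 1.03) and Psmb3 by 0.05 (-1.57 to 1.67). With 2 rats per group these intervals are wide. That of Psmc4 covers its PFOA change of 0.64, and that of Psmb8 overlaps its PFOA interval. The studies differ in sex, dose and array, and these chemicals were not compared.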

How the data were processed

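Liver RNA of single rats was measured on 3 types of Affymetrix array. The deposited values are linear signal intensity of each probe set, some below 0, and how the authors made them is not given in the sources used here. Arrays were quantile-normalised within a study where array medians of log2(intensity + 16) differed by over 0.5, which left the 3-week PFOS study as deposited. Negative values were set to 0 after this step. Control probe sets took part in the normalisation and were left out of the fits. Group means were fitted per study with limma 3.58.1 in R 4.3.3 (lmFit, eBayes, two-sided), with Benjamini-Hochberg adjustment over all tested probe sets and a threshold of 0.05. Annotation gave 1 symbol for 7006 of 8740, 20826 of 31042 and 12783 of 15866 tested probe sets, and genes were named from those alone.

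Of the member probe sets, 46 of 49, 56 of 60 and 46 of 46 remained when the dimmest 33.3% of all probe sets were left out. Any member may be named. Each gene's leading probe set is its brightest, averaged over the arrays of a study. Others that differ in call are named for some genes only, so an unnamed one need not share the call. Values are given for the called genes with the largest changes, by class and for the catalytic and activator subunits. Genes of related pathways and cell type markers come from lists. The members, lists and tests were chosen with earlier results of these data known. Alternatives were pseudocounts of 1 and 64, median scaling, only the groups compared, rat 1003 kept, probe sets averaged by gene, the dimmest 33.3% left out, a replicate block (D3T) and each array left out in turn. Leaving out rats 4506 and 4509 together was chosen after seeing the data. The script was tested on simulated data. Figures were drawn with matplotlib 3.10.9.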

Additional observations from a re-analysis of the deposited data

Results flagged for a closer look

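In 160 tests over 8 genes, 14 single values lay far from the other rats of their group, and chance sets apart about 1 in 20 groups. In PCN females at 6 h these were rat 5503 for Psmb5 (10.21, others 10.56 to 10.64) and Psmd13 (6.87, others 7.16 to 7.22), and rat 5504 for Psmb9 (8.07, others 7.56 to 7.70). With phenobarbital they were Psmb5 in female 4515 after 5 doses (10.18, others 10.41 to 10.5), Psmb9 in male 4006 at 24 h (8.83, others 7.90 to 8.16), Psmd13 in male 4010 at 24 h (6.63, others 6.83 to 6.88) and Psmb9 in male 4003 at 6 h (8.10, others 7.63 to 7.75). Among vehicle rats they were Psmb3 (9.36, others 9.25 to 9.28) and Psmb9 (8.88, others 8.41 to 8.51) in female 1510, Psme2 in female 1512 (8.35, others 8.93 to 9.03), Psmb3 in male 1012 (9.63, others 8.98 to 9.13) and Psmc4 in male 1002 (8.23, others 7.63 to 7.72). On diets they were Psmb5 in D3T rat 1 (10.40, others 10.23 to 10.25) and Psmd13 in control rat 4 (6.48, others 5.80 to 5.91).

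The phenobarbital effect in females differed between 5 doses and 24 h after 1 dose for 16 genes, by limma's test of the difference. For ATPases the difference was -0.84 (Psmc1), -0.90 (Psmc2), -0.85 (Psmc3), -1.20 (Psmc4) and -1.08 (Psmc5), and for the base subunit Psmd1 it was -1.03. For the alpha ring it was -0.87 (Psma1), -0.87 (Psma4), -0.78 (Psma5) and -0.95 (Psma7). For the beta ring it was -0.67 (Psmb1), -1.16 (Psmb3), -0.88 (Psmb4) and -0.68 (Psmb5), and for the lid -0.87 (Psmd11) and -0.98 (Psmd13).

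For Psme2 with PCN in females the change was -0.09 at 6 h and 0.13 at 24 h, neither of which passed. The values lie on opposite sides of 0, and their difference of -0.22 was not tested.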

How the results depend on the processing

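Counts below are proteasome probe sets that passed, with phenobarbital written PB. With a pseudocount of 1, PB males at 6 h had 5, and with 64 all 205 called gene values kept their call. With median scaling there were 5 (PB males 24 h), 2 (PB males 5 doses), 2 (PCN males 6 h), 7 (PCN females 24 h), 2 (PCN females 5 doses), 0 and 11 (PB against PCN, males 24 h and females 5 doses) and 40 (D3T, where Psmd4, Psmc4, Psmb1 and Psmb4 reversed to -0.38, -0.43, -0.58 and -0.43). With only the groups compared there were 1, 9 and 1 (PB males 6 h, 24 h and 5 doses), 8 (PB females 24 h), 0 and 7 (PCN males 6 h and 5 doses), 1 (PCN females 5 doses), 0, 0 and 3 (PB against PCN, males 24 h, males 5 doses and females 24 h), 4 (PB females, 5 doses against 24 h), 6 (PFOA), 7 and 14 (Wy-14643 days 3 and 7). With rat 1003 kept there were 16 and 9 (PB males 6 h and 24 h), 21 (PCN males 6 h), 2, 9 and 6 (PCN females 6 h, 24 h and 5 doses), 6 and 8 (PB against PCN, females 24 h and 5 doses) and 19 (PB females, 5 doses against 24 h). Averaging a gene's probe sets gave 11, 1 and 3 genes (PB males 24 h and 5 doses, PCN females 6 h). Leaving out the dimmest 33.3% gave 8 (D3T), 6 (PFOA) and 1 (PFOS males). Without rats 4506 and 4509, chosen after seeing the data, there were 18 (PB females 24 h), 0 (PB against PCN) and 6 (PB females, 5 doses against 24 h).

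The replicate block for D3T gave 5, and Psme4 and Psmb4 were the 2 of 8 called genes that still passed. Same-numbered rats correlated at 0.27, -0.08, -0.09 and -0.21 in their deviations. The labels used here do not say whether the numbers pair the rats, and so few correlations cannot decide it.

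Leaving out 1 array at a time gave 0 to 6 (PB males 6 h), 7 to 15 (24 h) and 2 to 4 (5 doses), 0 to 6, 0 to 1 and 20 to 32 (PCN males at these times), 30 to 36 (PB females 24 h), and 5 to 10, 11 to 14 and 2 to 14 (PCN females). It gave 20 to 32 for PB females, 5 doses against 24 h, 0 to 1 for both sex differences after 5 doses, and 0 to 1, 4 to 18, 4 to 22 and 12 to 17 for PB against PCN (males 24 h and 5 doses, females 24 h and 5 doses). It gave 7 to 11 (D3T), 2 to 8 (PFOA), 0 to 1 (PFOS males) and 19 to 21, 14 to 22 and 19 to 26 (Wy-14643 days 1, 3 and 7). Over 205 called gene values and 3268 alternative values, 2656 kept their call, 608 kept the direction but not the call and 4 reversed. That total mixes settings of unlike effect. With only the groups compared, 38 of 119 gene values kept their call in the phenobarbital and PCN study. For PFOA 3 of 9 did, and for Wy-14643 40 of 69. With median scaling 90 of 119, 4 of 9 and 66 of 69 did in the same order. The cause was not tested. Small groups and dim probe sets limit what could be detected.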
